A study of Mus musculus with 6 samples.

Results

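The genes described are 46 members of the actin and adhesion machinery: actins, tropomyosins and other thin filament regulators, subunits of myosin II, actin crosslinkers, focal adhesion plaque proteins, factors of filament assembly and turnover, and SRF with its cofactors. They were picked by symbol for their function, with earlier results of these data known, and all 46 were found among the 24354 genes of the deposited table. RNA was sequenced from epidermal cells of mouse embryos at E18.5 (late gestation); a sort kept those with much α6 integrin on the surface, part of the receptor by which basal keratinocytes hold on to laminin. There were 3 libraries from wild-type (WT) embryos and 3 from embryos homozygous for Pik3ca H1047R (mutant), an activating variant of the catalytic subunit of phosphoinositide 3-kinase. All samples carry the strain label C57BL6, and the labels give a genotype but no treatment, Cre driver, sex or number of animals per sample. Whether libraries of 1 genotype come from different animals is not stated. The p-values therefore set the difference between groups against the spread of these libraries only, and that spread may be technical. Values written with ± are the mean and SD over the 3 libraries of a group (n = 3).

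Actin filaments are built from actin monomers, stabilized by tropomyosins, bundled by crosslinkers and pulled by myosin II. At focal adhesions, talin, vinculin, paxillin and zyxin connect filaments to integrins, and in basal keratinocytes these structures accompany attachment to the basement membrane, spreading and migration. Serum response factor (SRF) binds a DNA element called the CArG box in many genes of this machinery. Its cofactors Mkl1 and Mkl2 (also called MRTF-A and MRTF-B) bind actin monomers and move to the nucleus when monomers are used up in filaments.

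The unit was FPKM, a fragment count divided by transcript length and scaled for library size, so levels can be compared between genes. Which library scaling was used is not stated. The number of reads is unknown. Libraries summed to between 538627 and 767148 FPKM, and between 11242 and 11351 genes per library reached 1 FPKM. Pik3ca itself was at 8.7, 8.92 and 9.5 FPKM in WT and 7.15, 6.81 and 5.98 FPKM in mutant libraries. Its log2 fold change was -0.39 (limma adjusted p = 0.00433), a call lost with libraries scaled to the same total (limma adjusted p = 0.589). As the allele is a point variant, this level does not check the genotype. The sort was checked on marker levels. Basal keratinocyte markers (Krt5, Krt14, Itga6, Itgb4, Col17a1 and Trp63) summed to between 23047 and 23638 FPKM in WT and between 20155 and 23211 FPKM in mutant libraries. Of these 6, Itga6, the gene of the sorted integrin (-0.41), Itgb4 (-0.75) and Col17a1 (-0.36) fell. Of 6 suprabasal markers, 4 (Krt1, Krt10, Dsg1a and Dsc1) rose, and the list summed to between 3810 and 4573 FPKM in WT and between 11698 and 14325 FPKM in mutant libraries. The members' level in suprabasal cells is not known from these data, so the part of this difference in the results below was not tested. In bulk samples, fewer cells of a type and less RNA per cell cannot be told apart.

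Most of these 46 genes were lower in mutant libraries. Of the 46 members, 39 fell, 0 rose and 7 did not pass the test (limma on log2(FPKM + 1) over all genes, Benjamini-Hochberg adjusted p under 0.05). Of 11385 genes tested, 22.8% were called lower and 23.2% higher. In the same 39 members every mutant value lay below every WT value, against 26.9% of all genes tested. A fall of at least 1 on the log2 scale was called for 20 members, against 2.49% of all genes tested. The members' median log2 fold change was -0.85 and that of all genes tested was 0.01. Many abundant genes were lower: of 751 genes averaging 100 FPKM or more, 46.3% were called lower, and of the 24 members that abundant 22 were.

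The 46 members together took 18243, 17031 and 16628 FPKM in the WT libraries and 7428, 7760 and 8799 FPKM in the mutant libraries. Every mutant sum was far below every WT sum. As a share of everything measured in a library, the members took 2.39% ± 0.158 in WT and 1.39% ± 0.0477 in mutant libraries. A two-sided exact permutation test of the sum, and likewise of the share, returned p = 0.1, which is as low as 3 against 3 can go. Without the cytoplasmic actins Actb and Actg1, which made up between 49.1% and 49.9% of the sum in WT and between 39.2% and 41.8% in mutant libraries, the rest summed to 8731 ± 501 and 4764 ± 317 FPKM.

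**Figure D1:**
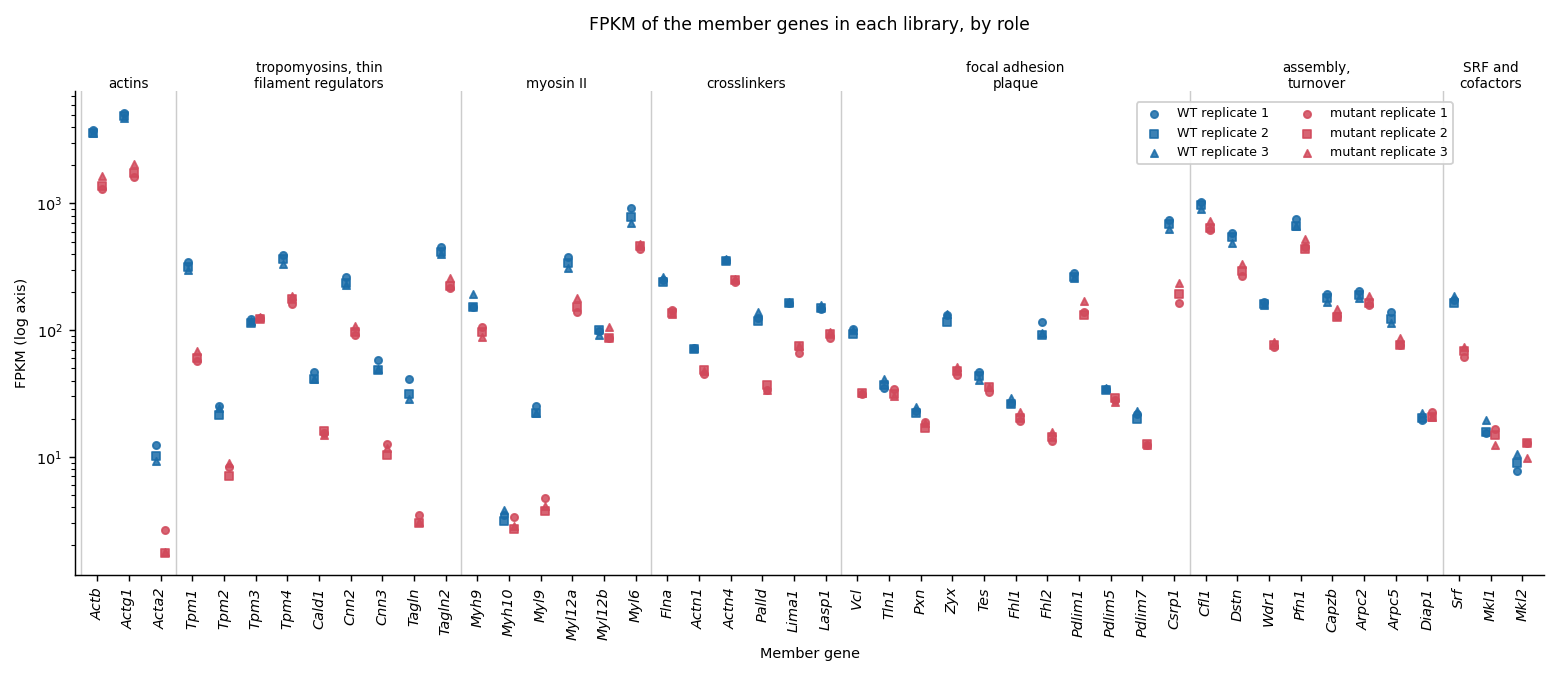
FPKM (log axis) of each member in the 3 WT libraries (blue) and the 3 mutant libraries (red), ordered by role, with 1 marker shape per replicate number. For 39 of the 46 genes every red point lies below every blue one, and the cytoplasmic actins stand highest in both groups.

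Scaling between libraries sets how far these falls go. When each library was scaled to the same total FPKM, the median gene's log2 fold change rose by 0.29, to 0.3. Rows with a locus under 200 bases enter that total. They held 8.26% of the summed FPKM in mutant replicate 3 and between 0.66% and 2.6% in the other libraries. With that scaling 31 members were called lower and 4 (Tpm3, Myl12b, Diap1 and Mkl2) higher, where 7.4% of all genes tested were called lower and 47.2% higher. Relative to the median gene, the members' median was -0.86 as deposited and -0.83 with the same total. These values had to be close, because that scaling multiplies each library by 1 factor and so moves nearly all genes alike. They are therefore no check on the scaling. Falls below are for the values as deposited, and members whose call ended with the same total are named.

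Srf, the transcription factor gene, was itself among the members that fell. Its values were 173, 164 and 185 FPKM in the WT libraries and 61.5, 68.9 and 73.2 FPKM in the mutant libraries, a 2.56-fold lower mean (log2 fold change -1.35, SE 0.0825, limma adjusted p = 1.95e-05). The mutant values lay well below the WT values, and the groups did not overlap. The cofactor genes did not pass. Mkl1 was at 15.3, 15.6 and 19.6 FPKM in WT and 16.5, 14.9 and 12.3 FPKM in mutant libraries, with overlap between the groups (limma adjusted p = 0.227). Mkl2 was at 7.70, 8.88 and 10.5 FPKM in WT and 12.8, 12.8 and 9.80 FPKM in mutant libraries (log2 fold change 0.35, 95% interval 0.06 to 0.65, limma adjusted p = 0.055). Mutant replicate 3 lay within the WT range of Mkl2. Without that library Mkl2 passed as higher (0.47, adjusted p = 0.0156), and without WT replicate 3 it did so too (0.46, adjusted p = 0.0219).

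Promoters were searched because SRF, a factor with a known DNA element, is among the members. RefSeq promoter sequences (GRCm38.p6, from 250 bases before to 50 bases after a start) matched 42 of the 46 members. Actb, Tagln, Pxn and Diap1 had no promoter among them and were not searched. A CArG box, read as CC, 6 bases of A or T and GG, on either strand, occurred in at least 1 promoter of 9 of them (21.4%): Actg1, Cnn2, Fhl1, Fhl2, Lima1, Myl6, Myl9, Srf and Vcl. Of all 27025 genes in the promoter table, 1.81% had one. All 9 were called lower, with log2 fold changes between -2.72 (Fhl2) and -0.38 (Fhl1) and a median of -1.35. The call of Fhl1 ended with the same total (-0.07, limma adjusted p = 0.616). Of the 33 matched members without a box in the window, 27 were called lower, with a median of -0.74. Among these, the calls of Myh9, Actn4, Tln1, Tes, Pdlim5 and Capzb ended with the same total. The difference between members with and without a box was not tested. The TEAD motif GGAATG, on either strand, occurred in 13 of the 42 members (31.0%) and in 16.6% of all genes. Among those 13 were Arpc2, Mkl2 and Myh10, which were not called. A match is a description of the letters in this window.

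The 250 bases before the start of 7 of these genes are printed to show where the boxes lie in the regulator, in the most abundant member and in genes of strong and weak fall. The capitals mark the CArG boxes. The sequences run 5′ to 3′ on the gene's strand in GRCm38.p6: Srf at chr17:46556163-46556412 (minus strand), Actg1 at chr11:120348496-120348745 (minus), Vcl at chr14:20929148-20929397 (plus), Cnn2 at chr10:79988350-79988599 (plus), Myl9 at chr2:156775214-156775463 (plus), Fhl2 at chr1:43163962-43164211 (minus) and Fhl1 at chrX:56779433-56779682 (plus).
Srf: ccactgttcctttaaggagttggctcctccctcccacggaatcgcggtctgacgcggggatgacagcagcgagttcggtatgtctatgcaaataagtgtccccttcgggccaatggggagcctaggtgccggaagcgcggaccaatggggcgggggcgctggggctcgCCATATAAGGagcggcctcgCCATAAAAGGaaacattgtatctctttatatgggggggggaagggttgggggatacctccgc
Actg1: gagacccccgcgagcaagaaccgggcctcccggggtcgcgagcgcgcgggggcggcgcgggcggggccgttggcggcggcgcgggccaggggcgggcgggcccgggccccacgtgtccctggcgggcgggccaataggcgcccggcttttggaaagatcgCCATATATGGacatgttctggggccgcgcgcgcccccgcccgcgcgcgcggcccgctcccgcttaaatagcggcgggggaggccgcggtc
Vcl: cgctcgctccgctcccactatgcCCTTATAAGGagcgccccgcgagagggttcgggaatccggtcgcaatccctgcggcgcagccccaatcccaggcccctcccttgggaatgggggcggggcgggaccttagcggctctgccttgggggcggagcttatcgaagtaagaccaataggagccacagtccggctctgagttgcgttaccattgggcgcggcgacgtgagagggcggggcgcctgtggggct
Cnn2: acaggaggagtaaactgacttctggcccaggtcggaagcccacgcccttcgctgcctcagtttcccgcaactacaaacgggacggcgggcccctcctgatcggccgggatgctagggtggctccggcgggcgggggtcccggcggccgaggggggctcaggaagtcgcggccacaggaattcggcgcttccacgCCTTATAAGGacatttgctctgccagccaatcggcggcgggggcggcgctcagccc
Myl9: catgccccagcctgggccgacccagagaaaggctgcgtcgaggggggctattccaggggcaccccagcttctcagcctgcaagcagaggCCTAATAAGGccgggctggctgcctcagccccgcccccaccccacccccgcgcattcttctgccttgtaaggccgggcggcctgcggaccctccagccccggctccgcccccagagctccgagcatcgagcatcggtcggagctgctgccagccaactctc
Fhl2: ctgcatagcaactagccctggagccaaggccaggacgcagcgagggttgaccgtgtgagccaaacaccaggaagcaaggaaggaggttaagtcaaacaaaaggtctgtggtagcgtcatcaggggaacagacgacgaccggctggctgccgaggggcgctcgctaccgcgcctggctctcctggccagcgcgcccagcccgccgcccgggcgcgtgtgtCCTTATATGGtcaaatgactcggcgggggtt
Fhl1: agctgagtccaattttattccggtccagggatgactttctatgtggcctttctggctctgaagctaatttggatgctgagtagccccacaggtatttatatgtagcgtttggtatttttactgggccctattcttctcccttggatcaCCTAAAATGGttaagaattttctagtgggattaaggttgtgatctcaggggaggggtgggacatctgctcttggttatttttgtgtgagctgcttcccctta
Srf had 2 boxes, which begin 82 and 62 bases before its start. The box of Actg1 began 90 bases before the start, that of Cnn2 56 and that of Myl9 161 bases before it. Cnn2, Vcl and Lima1 held the same letters, CCTTATAAGG, and the box of Vcl lay farthest out, at 227 bases. Fhl2, the member with the largest fall among these, had a box 31 bases before the start printed and another, CCAAAAAAGG, 96 bases before its other annotated start. Fhl1, its relative with the smallest fall, had CCTAAAATGG.

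The cytoplasmic actins were the most abundant members and both fell. Actb (chromosome 5, 142903118 to 142906754) was at 3798, 3592 and 3574 FPKM in WT and 1289, 1368 and 1638 FPKM in mutant libraries (2.55-fold lower, log2 fold change -1.36, SE 0.132, limma adjusted p = 0.000166). Actg1 (chromosome 11, 120345690 to 120348484) was at 5152, 4869 and 4723 FPKM in WT and 1621, 1741 and 2039 FPKM in mutant libraries (2.73-fold lower, -1.45, SE 0.139, adjusted p = 0.000149). Mutant replicate 3 was the highest of its group for both genes and still below WT. By mean level, Actg1 went from rank 14 to rank 53 of all genes and Actb from rank 38 to rank 71. Of the 50-base windows in its longest coding transcript, 56.7% for Actg1 and 14.2% for Actb also occur in another annotated gene, so reads may be split between copies and these levels are uncertain. The deposited intervals around their values had median halfwidths of 117% and 101% of the value.

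Acta2, the actin of smooth muscle, was rare in these cells. It was at 12.3, 10.2 and 9.21 FPKM in WT and 2.63, 1.75 and 1.79 FPKM in mutant libraries (5.12-fold lower, -1.92, SE 0.137, limma adjusted p = 3.53e-05). Of 8 pericyte and vascular smooth muscle markers, which summed to between 12.68 and 14.65 FPKM in WT and between 18.52 and 27.62 FPKM in mutant libraries, Higd1b was at 0 everywhere and Myh11 was at most 0.161 FPKM. Of the 2 tested, Notch3 rose (1.24), from 6.68 ± 0.682 to 17.3 ± 3.39 FPKM, and made up most of each mutant sum. Cspg4 did not pass, at 5.97 ± 0.587 and 4.93 ± 0.742 FPKM. Among those not tested, Kcnj8 was lower without overlap, at 0.345 ± 0.131 and 0.144 ± 0.0475 FPKM. The groups of Pdgfrb, Rgs5, Abcc9 and Myh11 overlapped. Of 6 smooth muscle markers, which summed to between 5.03 and 7.16 FPKM in WT and between 3.54 and 4.8 FPKM in mutant libraries, Actg2, an actin itself, fell by 1.08 on the log2 scale and Itga8 rose (0.5). Others of that list were under the filter on low values and had no test. Cnn1 was at 0.577, 0.495 and 0.449 FPKM in WT and 0.171, 0.049 and 0.0548 FPKM in mutant libraries, and Des at 1.33, 0.463 and 0.543 FPKM and 0.381, 0.305 and 0.341 FPKM. In both genes every mutant value lay below every WT value, as it did for Actg2. Synpo2 went the other way, with no overlap between the groups. It was at 0.604, 0.639 and 0.668 FPKM in WT and 0.833, 1.06 and 0.883 FPKM in mutant libraries. The groups of Lmod1 overlapped. The 8 dermal fibroblast markers summed to between 373 and 507 FPKM in WT and between 305 and 340 FPKM in mutant libraries. Of 7 tested, 1 (Dcn) was called lower and 0 higher, where 22.8% and 23.2% of all genes tested were. All 7 had log2 fold changes below 0, from -0.68 to -0.34 with a median of -0.55. Lum was lower without overlap between the groups, though it did not pass. Of 8 skeletal muscle markers, which summed to between 18.9 and 31.3 FPKM in WT and between 13.2 and 14.1 FPKM in mutant libraries, 2 of 4 tested (Acta1 and Tnnt3) fell. Melanocyte markers (Pmel and Dct fell, of 3 tested) summed to between 15.27 and 20.97 FPKM in WT and between 10.71 and 14.27 FPKM in mutant libraries, immune markers (Cd68, Fcer1g and C1qc fell, of 3 tested, Cd207 at 0) to between 6.43 and 7.34 and between 4.04 and 4.66 FPKM, and endothelial markers, none of which reached the test, to between 1.43 and 3.81 and between 0.833 and 2.11 FPKM. The part of these cell types' RNA in the falls of the members was not tested.

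Of the 4 tropomyosin genes, 3 fell and 1 did not. Tropomyosins lie along the filament and decide which other proteins bind it. Tpm1 was at 346, 318 and 300.3 FPKM in WT and 57.2, 60.7 and 68.7 FPKM in mutant libraries (5.16-fold lower, -2.35, SE 0.0882, limma adjusted p = 3.89e-06). Tpm4 fell from 362 ± 30.2 to 174 ± 12.8 FPKM and Tpm2 from 23.8 ± 2.04 to 8.15 ± 0.945 FPKM. Tpm3 was at 123, 114 and 119 FPKM in WT and 125, 123 and 128 FPKM in mutant libraries (0.08, 95% interval -0.06 to 0.21, adjusted p = 0.317). Its mutant values lay just above the WT values, and it passed as higher with the same total (0.41, adjusted p = 0.00679) and under quantile normalization (0.31, adjusted p = 0.00418). In its longest transcript 62.4% of the 50-base windows occur in another annotated gene, so its level is uncertain.

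The other thin filament regulators all fell. Caldesmon (Cald1), which inhibits myosin on filaments, went from 42.9 ± 3.05 to 15.4 ± 0.666 FPKM (limma adjusted p = 8.21e-06). Among calponins, Cnn2 was at 265, 235 and 228 FPKM in WT and 91.5, 97.5 and 108 FPKM in mutant libraries. Cnn3 was at 57.8, 48.9 and 49.4 FPKM in WT and 12.7, 10.4 and 11.7 FPKM in mutant libraries (4.49-fold lower, -2.08, adjusted p = 5.22e-06). The Cnn2 locus in the table covers neighbouring genes and the halfwidth of its deposited interval was 271% of the value, so its level is less certain than its spread over libraries shows. Tagln, an actin-binding protein also called SM22, had the largest fall of all members: it was at 41.1, 31.5 and 28.4 FPKM in WT and 3.48, 3.03 and 3.04 FPKM in mutant libraries (10.6-fold lower, -3.04, SE 0.127, adjusted p = 4.28e-06). The lowest WT value was several times the highest mutant value. Its deposited locus runs from 45863691 to 45936058 on chromosome 9, and the median halfwidth of its deposited interval was 85.2% of the value. Tagln is therefore also less certain in level than its spread over libraries shows. On the opposite strand it shares exonic bases with Pcsk7, and since the sources used here do not say whether strand was kept, reads of the pair cannot be told apart. The same holds for Vcl with Ap3m1, Zyx with Epha1, Actn4 with Capn12, Cfl1 with Snx32, Tln1 with Creb3, Mkl1 with Sgsm3 and Myl12a with Myom1. Actn1, Cnn3, Mkl2, Tes, Tpm4 and Wdr1 overlap only predicted genes with Gm symbols there. Its more abundant relative Tagln2 fell less, from 421 ± 26.6 to 232 ± 21.1 FPKM (1.82-fold lower).

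**Figure D2:**
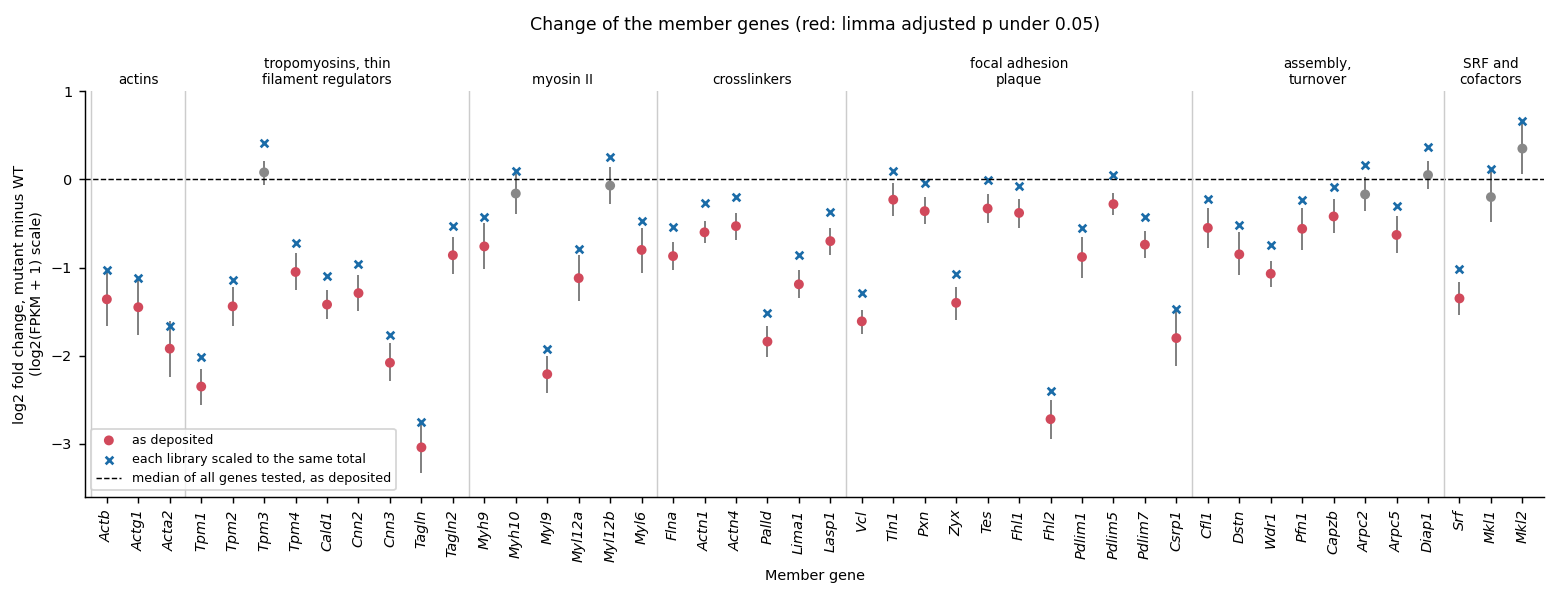
Log2 fold change (mutant minus WT, log2(FPKM + 1) scale) of each member with its 95% interval, red where called, grey where not, and blue crosses for libraries scaled to the same total FPKM; the dashed line is the median of all genes tested. Tagln (-3.04) and Fhl2 (-2.72) lie lowest, and the 7 grey genes lie between -0.2 and 0.35.

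Myosin II is a motor of heavy chains, regulatory light chains and the essential light chain Myl6. Of its 6 genes 4 fell. Myh9, the heavy chain of nonmuscle myosin IIA, was at 152, 152 and 194 FPKM in WT and 106, 96.7 and 88.8 FPKM in mutant libraries (1.71-fold lower, -0.76, SE 0.113, limma adjusted p = 0.0013), a call that ended with the same total (-0.43, adjusted p = 0.059). WT replicate 3 stood above the other WT libraries. The other heavy chain, Myh10, was far lower in both groups, at 3.46 ± 0.328 and 2.99 ± 0.351 FPKM (adjusted p = 0.198), and its groups overlapped. Among regulatory light chains, Myl9 was at 25.2, 22 and 22.1 FPKM in WT and 4.77, 3.77 and 4.11 FPKM in mutant libraries (5.48-fold lower, -2.21, SE 0.0891, adjusted p = 3.89e-06). The neighbouring genes Myl12a and Myl12b on chromosome 17 did not go together. Myl12a fell from 341 ± 34.5 to 157 ± 20.1 FPKM (adjusted p = 0.000192), whereas Myl12b was at 96.7 ± 4.50 and 92.6 ± 11.3 FPKM (adjusted p = 0.564). Both are uncertain, since 29.6% of the 50-base windows of Myl12a and 11.4% of those of Myl12b occur in another gene, and their annotated exons overlap. Myl6 fell from 804 ± 106 to 458 ± 18.9 FPKM.

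All 6 crosslinker and filament-linking genes fell, with log2 fold changes between -1.84 and -0.53. Palladin (Palld), a scaffold of stress fibers, was at 124, 119 and 139 FPKM in WT and 33.6, 37.1 and 33.9 FPKM in mutant libraries (3.66-fold lower, -1.84, SE 0.0763, limma adjusted p = 4.28e-06). Lima1, which stabilizes filaments, fell from 165 ± 2.91 to 71.9 ± 5.09 FPKM, and filamin A (Flna), which links filaments to integrins, fell from 252 ± 11.2 to 138 ± 5.52 FPKM. The α-actinins fell least, Actn1 1.52-fold and Actn4 1.45-fold. The call of Actn4 ended with the same total (-0.2, adjusted p = 0.0831) and under quantile normalization. Lasp1, a LIM and SH3 domain protein, fell 1.63-fold.

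All 11 focal adhesion plaque genes were called lower, but their falls ran from -0.23 to -2.72 on the log2 scale. Fhl2, a LIM-only protein of adhesions and nucleus, was at 116, 92.3 and 95.4 FPKM in WT and 13.4, 14.4 and 15.6 FPKM in mutant libraries (7-fold lower, -2.72, SE 0.0966, limma adjusted p = 3.89e-06). Csrp1, a LIM protein on filaments, was at 745, 688 and 626 FPKM in WT and 164, 192 and 236 FPKM in mutant libraries (3.48-fold lower, -1.80, SE 0.136, adjusted p = 4.37e-05). Vinculin (Vcl), which couples talin to actin, was at 103, 93.5 and 101 FPKM in WT and 31.6, 31.9 and 31.7 FPKM in mutant libraries (3.13-fold lower, -1.61, SE 0.0589, adjusted p = 3.89e-06). The mutant libraries were nearly equal for vinculin. Zyxin (Zyx), a marker of adhesions under tension, fell from 128 ± 9.55 to 47.8 ± 3.54 FPKM. Talin, which binds integrin tails directly, moved little: Tln1 was at 34.7, 37.0 and 40.8 FPKM in WT and 34.4, 31.3 and 30.0 FPKM in mutant libraries (-0.23, 95% interval -0.41 to -0.04, adjusted p = 0.0484). Leaving out WT replicate 2, WT replicate 3, mutant replicate 2 or mutant replicate 3 ended that call (adjusted p = 0.101, 0.121, 0.132 and 0.115). Paxillin (Pxn), Tes, Fhl1 and Pdlim5 fell between 1.22-fold and 1.32-fold, and with the same total none of these 4 nor Tln1 passed. Pdlim1 and Pdlim7 fell 1.84-fold and 1.73-fold.

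Of 8 factors of filament assembly and turnover 6 fell, and the median of the 8 was -0.55. Wdr1, which helps cofilin take filaments apart, was at 168, 161 and 159 FPKM in WT and 73.4, 76.2 and 81.3 FPKM in mutant libraries (2.12-fold lower, -1.07, SE 0.0641, limma adjusted p = 1.68e-05). The severing factors destrin (Dstn) and cofilin (Cfl1) fell 1.80-fold and 1.46-fold, the latter from 964 ± 59.9 to 659.7 ± 53.7 FPKM. Under quantile normalization the call of Cfl1 ended. Profilin (Pfn1), which loads actin monomers, fell 1.47-fold. The capping subunit Capzb fell 1.34-fold, a call that ended with the same total (-0.09, adjusted p = 0.284). Of the Arp2/3 subunits, which nucleate branches, Arpc5 fell 1.56-fold and Arpc2 was at 190.1 ± 12.8 and 169 ± 14.3 FPKM (adjusted p = 0.145). Without mutant replicate 3, Arpc2 passed as lower (adjusted p = 0.0417). The formin Diap1, which nucleates straight filaments, was at 19.4, 20.2 and 22 FPKM in WT and 22.6, 20.6 and 20.6 FPKM in mutant libraries (0.05, 95% interval -0.11 to 0.21, adjusted p = 0.592).

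**Figure D3:**
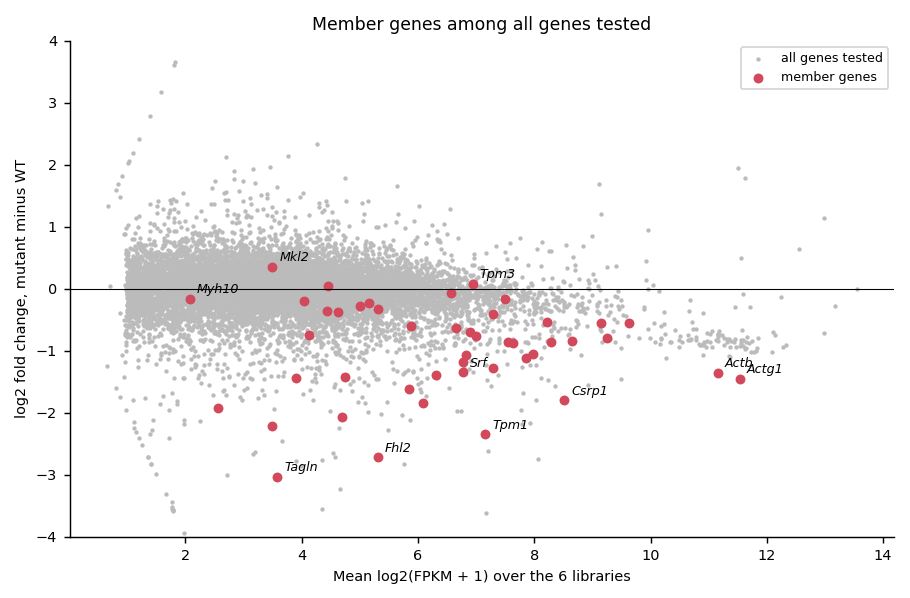
Log2 fold change (mutant minus WT) against mean log2(FPKM + 1) for the 11385 genes tested (grey) and the 46 members (red), with 8 genes outside the plotted range. Most members lie below 0, and among genes of at least 100 FPKM the median is -0.26.

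Because some relatives fell more than others, the makeup of several families differed between genotypes. A share within a library does not depend on how libraries were scaled to each other. Tpm1 made up 39.0%, 39.0% and 38.7% of tropomyosin FPKM in WT and 16.3%, 16.6% and 17.5% in mutant libraries. Fhl2 made up 81.3%, 77.9% and 76.8% of the Fhl1 and Fhl2 sum in WT and 41.1%, 41.5% and 40.9% in mutant libraries. The shares of Tagln among transgelins (7.35% ± 0.899 to 1.36% ± 0.206) and of Myl9 among regulatory light chains (5.02% ± 0.237 to 1.68% ± 0.342) were also lower in mutant libraries. That of Cnn2 among calponins was higher (82.4% to 89.5%). The cytoplasmic actins, myosin heavy chains and α-actinins differed by small amounts: Actb was 42.7% ± 0.366 and 44.3% ± 0.272 of the actin pair, Myh9 was 97.9% ± 0.16 and 97.0% ± 0.221 of the heavy chain pair, and Actn1 was 16.6% ± 0.193 and 15.9% ± 0.28 of the α-actinins. In these 8 families the groups did not overlap, and two-sided exact permutation tests returned p = 0.1 for each, as low as 3 against 3 can go (0.113 adjusted over the 9 families). The share of Pdlim7 overlapped (6.64% ± 0.579 and 6.71% ± 0.721; exact permutation p = 1.0).

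**Figure D4:**
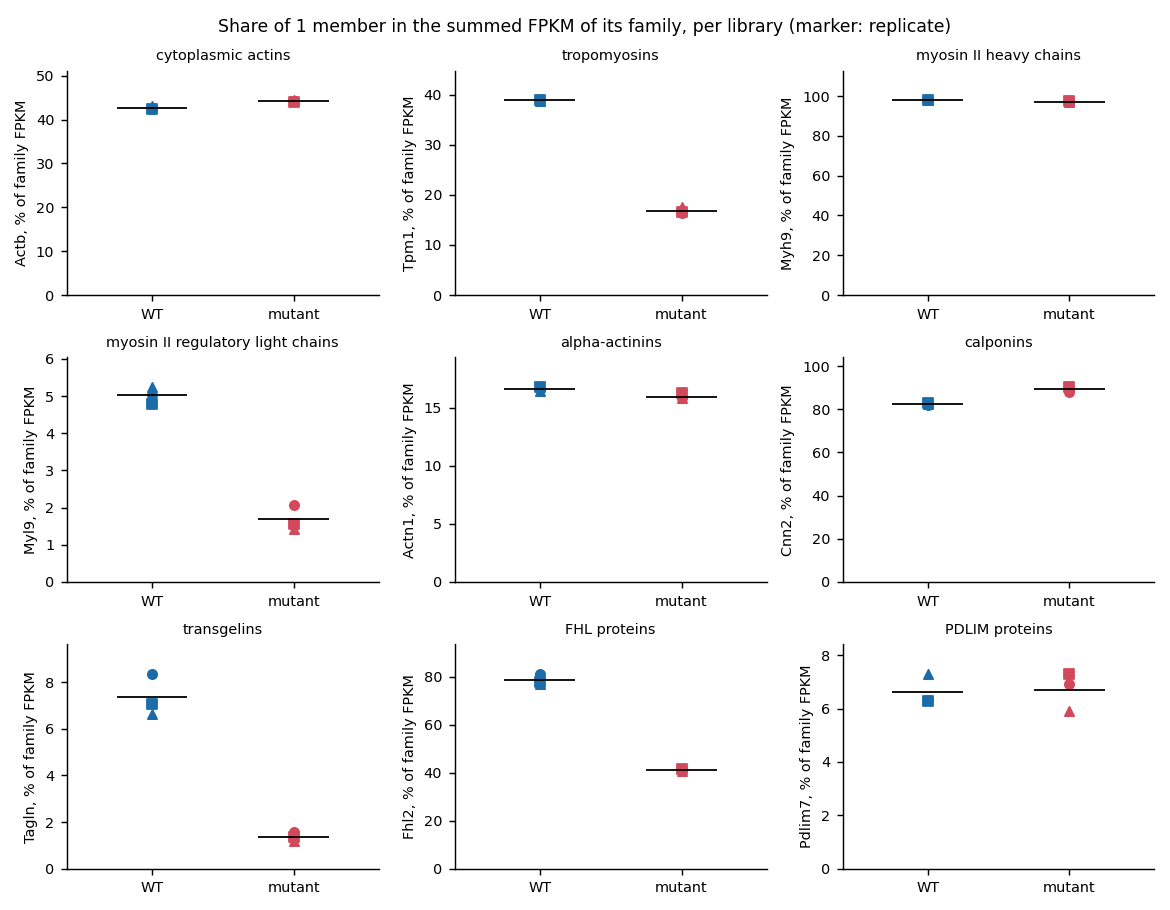
Share of the named gene in its family's summed FPKM (percent, axes from 0) in each library, with 1 marker shape per replicate number and a bar at the group mean. The mean shares of Tpm1 and Fhl2 drop from 38.9% and 78.6% to 16.8% and 41.2%, while those of Actb, Myh9 and Actn1 move by less than 2 percentage points.

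Other genes of the same machinery, taken from 8 lists chosen by function, moved in both directions. Of 149 such genes 130 were tested: 52 fell, 23 rose and 55 did not pass, with a median log2 fold change of -0.14. Against the 22.8% and 23.2% of all genes, that is a larger share lower and a smaller share higher. With the same total 23 were called lower and 47 higher, where 7.4% of all genes were called lower and 47.2% higher. Among monomer binding, capping and severing genes 8 of 18 fell and 3, Twf1, Ssh3 and Limk1, rose. Thymosin beta (Tmsb4x), which holds actin monomers, fell from 2795 ± 339.8 to 1335 ± 237 FPKM, and the cofilin relative Cfl2 from 41.6 ± 2.47 to 20.7 ± 1.85 FPKM. Of Arp2/3 and activator genes 3 of 16 fell, Actr3 (-0.55), Arpc1b (-0.41) and Abi1 (-0.39), and 3 rose, Arpc1a, Arpc5l and Wasf1, in both directions a share below that of all genes tested.

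Of other focal adhesion plaque genes 12 of 27 fell and 5, Fermt1, Tns4, Arhgef7, Pdlim2 and Pdlim4, rose. The adaptor Lims1 fell from 32.5 ± 2.37 to 16.9 ± 0.599 FPKM and Tgfb1i1, a relative of paxillin, from 4.07 ± 0.525 to 1.02 ± 0.135 FPKM. Of other crosslinkers and membrane linkers 7 of 16 fell and 2, Pls1 and Marcksl1, rose. The plastins differed: Pls3 fell from 77.9 ± 8.17 to 30.4 ± 1.14 FPKM, and Pls1, a rarer one, rose from 1.56 ± 0.137 to 3.30 ± 0.264 FPKM. Formins and Ena/VASP proteins had 4 of 10 lower, Fhod3, Fmnl3, Daam1 and Vasp, and 1 higher, Enah, a filament elongation factor that rose from 12.9 ± 0.994 to 19.4 ± 2.11 FPKM. Of other myosins and muscle-type isoforms 6 of 15 fell and 2, Myo5a and Myo18a, rose, and the class I myosin Myo1e fell from 50.4 ± 0.691 to 21.8 ± 0.0979 FPKM. The higher genes other than Enah and Pls1, with Daam1 and Vasp, were named after their values were seen.

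Of 12 tested SRF partners and targets outside the cytoskeleton 3 fell and 6 rose, with a median of 0.19. Of all genes tested, 22.8% were called lower and 23.2% higher. With the same total 47.2% of all genes were called higher, so the number of rises depends on the scaling. The immediate early genes Egr1, Egr2, Egr3, Fos, Fosb and Ier2 were the 6 that rose, and Ctgf, Cyr61 and the SRF partner Elk4 were the 3 that fell (the 6 besides Egr1, Egr3 and Ctgf were named after their values were seen). Egr1, a zinc finger factor, rose from 375 ± 23.6 to 870.3 ± 119 FPKM and Egr3 from 16.1 ± 1.90 to 34.5 ± 1.75 FPKM. Ctgf, a secreted matrix-associated protein, fell from 211 ± 21.2 to 54.5 ± 17.1 FPKM (-1.98, limma adjusted p = 0.000214).

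**Figure D5:**
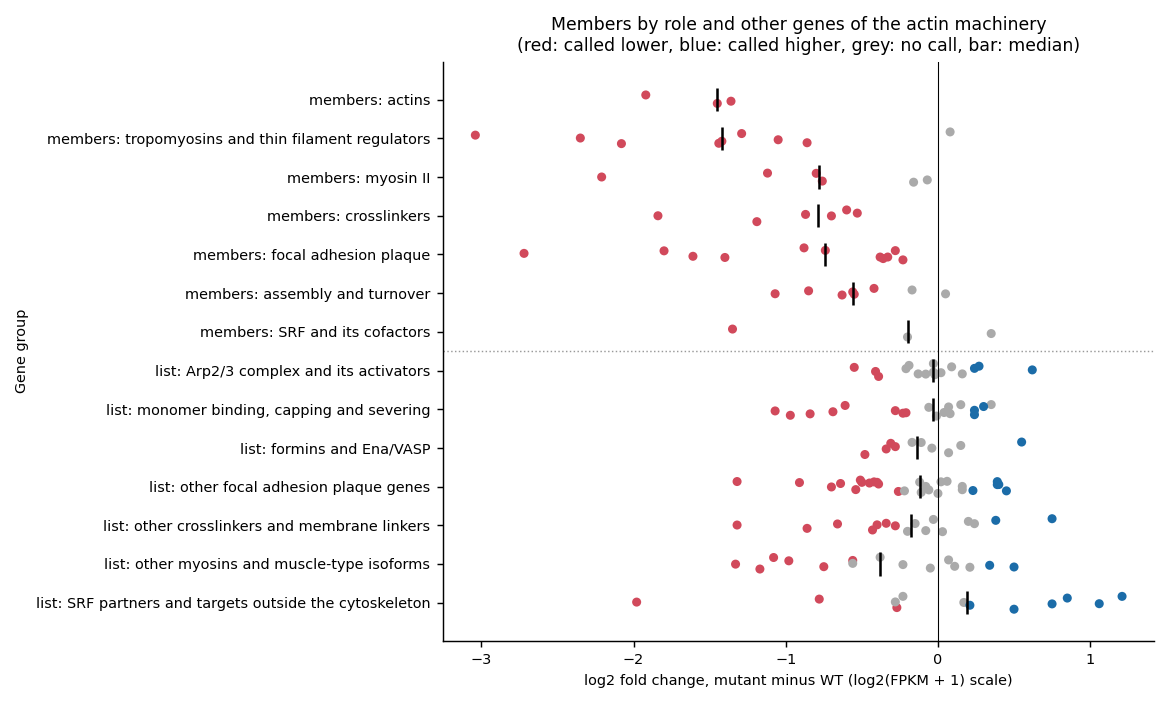
Log2 fold change (mutant minus WT) of the members by role (above the dotted line) and of the tested genes of 7 other lists (below it), red where called lower, blue where called higher, grey where not called, with a bar at each median. The medians of the actins (-1.45) and thin filament regulators (-1.42) lie lowest, and that of SRF partners and targets lies at 0.19.

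Within each group, the libraries differed in a way that went with transcript length. In WT replicate 3, 11 of the 12 members of 4000 bases or longer lay above the WT mean and 14 of the 15 members under 2000 bases lay below it. In mutant replicate 3, 11 of the 12 long members lay below the mutant mean and 12 of the 15 short ones above it. Median deviations from the group mean were at most 0.13 on the log2 scale. They are taken within a group, so they cannot show a length trend between genotypes. The median log2 fold change was -0.52 in the long and -0.86 in the short members. With a length trend removed from each library, an alternative chosen after seeing the data, Actb was at -1.34, Tpm1 at -2.38 and Tln1 at -0.27. Some short members moved more: Pfn1 went from -0.56 to -0.42 and Myl9 from -2.21 to -2.11. The long member Vcl went the other way, from -1.61 to -1.66. In that fit 39 members were called lower.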

How the data were processed

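Values are FPKM for each gene in each of the 6 libraries, deposited by the authors beside interval bounds, per the file headers. Per the submitters' processing notes, which give no role or order, the tools named are TopHat and Cufflinks; the sources used here name no version, library scaling or strand. Those notes name mm9, but of 23149 symbols shared with RefSeq GRCm38.p6, 98.9% overlapped the gene of that name there, as did all 46 members. Positions are those of the table, read as GRCm38, with 1 added to each start.

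Tests used limma 3.58.1 in R 4.3.3 (empirical Bayes with a trend) on log2(FPKM + 1) of 11385 genes that averaged 1 FPKM or more, all 6 libraries, no covariates, Benjamini-Hochberg adjustment over all of them and a threshold of 0.05. Fold changes on this scale understate the change of low genes; folds are ratios of mean FPKM. All 46 members passed the filter. No count test was run. The procedure was tested on simulated data with independent noise, in which a small part of the genes changed. In the deposited values 46.0% of genes tested were called in either direction, so the simulation does not check these calls. Sharing of 50-base windows, exon overlaps and transcript lengths came from GENCODE M21. Of the 8 other gene lists, 1 enters the total but is not reported here. Members, lists and tests were chosen with earlier results of these data known. Named are all members, Pik3ca, markers by list, and up to 3 genes past the threshold per other list, by smallest p and then by level; any others were named after their values were seen. Alternatives covered the pseudocount, the filter, scaling, the replicate number as a block, weighting of libraries, the variance prior, each library left out, length and shared sequence.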

Additional observations from a re-analysis of the deposited data

How the results depend on the processing

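Of the 39 members called lower, 30 kept direction and call in all 16 other fits. The other 9 (Myh9, Actn4, Tln1, Pxn, Tes, Fhl1, Pdlim5, Cfl1 and Capzb) lost it in at least 1. With each library scaled to the same total FPKM, 842 genes were called lower and 5375 higher, other actin pathway genes were 23 lower and 47 higher, and 4 members were called higher. That scaling multiplies each library by a single factor, and it turned the direction of Myh10 (0.089), Myl12b (0.26), Tln1 (0.097), Pdlim5 (0.046), Arpc2 (0.16) and Mkl1 (0.12). Quantile normalization turned Myl12b (0.1) and Arpc2 (0.11). Members called higher numbered 1 with the length trend removed, with library weights, at a pseudocount of 0.1 and under quantile normalization. Leaving out each library gave 38 to 39 members lower and 0 to 1 higher, 1957 to 2610 genes lower and 1922 to 2597 higher, and 47 to 53 other pathway genes lower and 17 to 24 higher. Without each library in turn the groups had shares of Pdlim7 that differed by -0.234 to 0.466 points, with both signs. Other causes were not tested. With at most 10% of 50-base windows shared, a limit chosen after seeing the data, 32 of 37 members were lower. With 1 mismatch allowed, 20 of the 42 matched members had a CArG box, and so did 23.8% of all genes. Those 20 included Tpm3 and Mkl1, which were not called. Same-numbered libraries had deviations that correlated at 0.127, 0.122 and -0.007, so the numbers were not taken as pairs. With the replicate block, 38 members were called lower, other pathway genes were 45 lower against 52 and 15 higher against 23, all genes were 1909 lower against 2592 and 1889 higher against 2642, and Tln1 lost its call (adjusted p = 0.129). Absolute depth is unknown, so no counting interval is given.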
